A study of Mus musculus with 73 samples.

Results

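The drug efflux transporters Abcb1a, Abcb1b, Abcb4, Abcc1, Abcc3, Abcc4, Abcc5 and Abcg2 were followed through bulk RNA sequencing of 73 mouse mammary tumours. They were chosen by symbol and make up 8 of the 39438 gene symbols in the count table. All 8 rows were found, each held reads in all 73 libraries, and all 8 passed the filter on low counts in each comparison. The smallest count in any library was 1 for Abcb4, 4 for Abcb1a and 9 for Abcb1b, against 36 for Abcg2 and 501 for Abcc1.

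The 8 proteins belong to the ATP-binding cassette (ABC) family, membrane pumps that spend ATP to move lipids, metabolites and drugs across membranes. Abcb1a and Abcb1b are the mouse pair that together do the work of the single human gene ABCB1 (P-glycoprotein), which expels taxanes, anthracyclines and the PARP inhibitor olaparib, and P-glycoprotein is a known route of resistance in mouse tumours without BRCA1. Abcb4 is a close relative that moves phosphatidylcholine into bile. Abcg2, also known as breast cancer resistance protein, exports topotecan and other topoisomerase inhibitors and secretes substrates into milk. The Abcc members are the multidrug resistance-associated proteins: Abcc1 exports glutathione conjugates, Abcc3 glucuronides and bile salts, and Abcc4 and Abcc5 cyclic nucleotides and nucleotide analogues.

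The tumours fell into 8 groups by genotype, title and histology. Tumours with the genotype label KB1(L1363P)P, called L1363P here, were 9 sarcomatoid, 9 carcinosarcomas and 3 adenocarcinomas. Among KP tumours 5 were adenocarcinomas and 3 carcinosarcomas. The remaining tumours were adenocarcinomas: 11 titled KB1P, 10 titled KB1PM that share the genotype label KB1P, and 23 of genotype KB2P. The labelled epithelial share was 100% for every adenocarcinoma and 0% for every sarcomatoid tumour, 80 to 90% for KP carcinosarcomas and 2 to 98% for those of L1363P. In the published models of these names, Cre recombinase driven by the Krt14 promoter removes p53 from mammary epithelium in all of them, with BRCA1 removed as well in KB1P and BRCA2 in KB2P. The published KB1PM mice are KB1P mice that also lack Abcb1a and Abcb1b; the labels used here do not describe what sets KB1PM apart. No treatment, age or strain is given for any group. Nothing in the labels says that the tumours came from separate animals, and 54.1 and 54.2 share a number, so the p-values speak of the spread between these samples alone.

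Abcb1a and Abcb1b lie side by side on the plus strand of chromosome 5 (GRCm38, GENCODE M21), at 8660077 to 8748575 and 8798147 to 8866315, with 49.6 kb between them. Abcb4 follows at 8893717 to 8959231. Their coding sequences are both 3828 bases long and 88.1% identical, and the longest stretch without a mismatch is 338 bases in exons 13 and 14. The 100 coding bases below, which run from exon 12 into exon 13 (Abcb1a chr5:8702257-8702446 and Abcb1b chr5:8824577-8824766, plus strand, interrupted by an intron), are shown because they hold the boundary of that stretch. The first 40 bases, in lower case, precede it and differ between the genes, and the last 60, in capitals, are shared, so a short read from them cannot be assigned to either gene.
Abcb1a: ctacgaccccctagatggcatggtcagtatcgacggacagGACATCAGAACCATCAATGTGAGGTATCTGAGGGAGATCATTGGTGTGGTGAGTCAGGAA
Abcb1b: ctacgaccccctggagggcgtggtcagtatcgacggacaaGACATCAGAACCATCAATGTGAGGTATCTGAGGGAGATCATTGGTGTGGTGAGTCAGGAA

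Of all windows of 50 bases in the annotated transcripts, 16.3% of those of Abcb1a also occur in Abcb1b, and 11.1% of those of Abcb1b occur in Abcb1a. Counts of the pair are therefore uncertain by the way shared reads were treated, and the remaining sequence tells the genes apart. The antisense gene Gm5106 overlaps Abcb1b by 377 bases and had at most 6 counts in any library. The other members lie elsewhere: Abcc1 and Abcc5 on chromosome 16 (14361558 to 14475737 and 20331303 to 20426394), Abcc3 on 11 (94343295 to 94392997), Abcc4 on 14 (118482692 to 118706219) and Abcg2 on 6 (58584523 to 58695676).

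RefSeq promoter windows were matched for 6 of the 8 members. Those of the pair are given because Abcb1a and Abcb1b levels parted in KB1PM tumours. They show the 250 bases before the RefSeq start (GRCm38.p6, plus strand), chr5:8566841-8567090 for Abcb1a and chr5:8797897-8798146 for Abcb1b, with matches to CCAAT and GGGCGG on either strand in capitals. The RefSeq start of Abcb1a lies 93.0 kb before the start of the GENCODE gene.
Abcb1a: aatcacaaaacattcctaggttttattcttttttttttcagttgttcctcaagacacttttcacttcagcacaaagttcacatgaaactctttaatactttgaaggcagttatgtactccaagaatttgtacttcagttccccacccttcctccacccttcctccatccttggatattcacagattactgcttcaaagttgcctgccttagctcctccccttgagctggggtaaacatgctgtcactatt
Abcb1b: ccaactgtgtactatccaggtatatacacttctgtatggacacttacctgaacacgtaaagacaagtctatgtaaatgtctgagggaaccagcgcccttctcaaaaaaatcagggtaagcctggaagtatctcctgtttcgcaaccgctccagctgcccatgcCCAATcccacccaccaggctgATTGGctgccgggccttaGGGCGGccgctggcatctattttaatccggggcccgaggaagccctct

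The Abcb1b window holds CCAAT 2 times (1 on each strand) and GGGCGG 1 time, and the Abcb1a window holds neither. Of 32851 mouse windows of the same length, 33.8% hold CCAAT and 32.7% GGGCGG. Neither window of the pair holds TATAAA (12.4% of all windows) or TGACTCA (4.46%). These are matches of letters and not sites of binding.

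Library totals ran from 13103749 to 17550129 counts in the 29 L1363P and KP tumours and from 7325180 to 31615237 in the other 44. The first number of each library description, called its prefix here, was 5625 for all L1363P and KP libraries, 1857, 2119 or 3528 for KB1P, 1725 or 1756 for KB1PM and 2459, 2749 or 2802 for KB2P. Group and prefix cannot be told apart in any comparison between those sets. Some tumours went against their labels. Sums of 10 epithelial markers (Epcam, Cdh1, Krt8 and others) ran from 72.2 to 514 CPM in sarcomatoid tumours. CPM are read counts relative to library size, with libraries scaled to each other. Of the 52 tumours labelled 100% epithelial, 3 had sums below the highest sarcomatoid sum. These were KP adenocarcinoma 90.01A with 250 CPM, KB1PM tumour 8 with 163 and KB2P tumour 30 with 14.2, the last below the whole sarcomatoid range. L1363P carcinosarcomas 17 (5% epithelial) and 4 (2%) had 139 and 321 CPM.

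Abcb1b was high in sarcomatoid and KB1PM tumours. Its mean level was 102 ± 18.8 CPM (SD) in L1363P sarcomatoid tumours (n = 9) and 91.3 ± 77.5 in KB1PM tumours (n = 10). It was 41.8 ± 50.2 CPM in KP adenocarcinomas (n = 5), or 20.0 ± 14.1 without tumour 90.01A (n = 4), and 30.7 ± 35.6 in L1363P carcinosarcomas (n = 9). The low groups were L1363P adenocarcinomas at 7.99 ± 4.41 CPM (n = 3), KB1P at 4.77 ± 4.69 (n = 11), KP carcinosarcomas at 4.74 ± 2.63 (n = 3) and KB2P at 4.13 ± 5.46 (n = 23).

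Abcb1a had the same group at the top but a different place for KB1PM. Its mean was 32.2 ± 9.17 CPM in sarcomatoid tumours, 18.0 ± 18.1 in KP adenocarcinomas (10.1 ± 4.22 without 90.01A), 11.7 ± 12.9 in L1363P carcinosarcomas (7.66 ± 4.93 without tumour 18) and 4.57 ± 1.25 in KP carcinosarcomas. KB1P tumours had 3.27 ± 3.49 CPM, L1363P adenocarcinomas 3.07 ± 1.80, KB1PM tumours 1.93 ± 0.955 and KB2P tumours 1.43 ± 1.17. KB1PM tumours thus stood second for Abcb1b and last but one for Abcb1a.

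Abcb4 ranged from 0.436 ± 0.627 CPM in KB2P to 9.69 ± 16.3 in sarcomatoid tumours, where tumour 9.1 alone had 52.9 CPM and the mean of the others was 4.30 ± 2.1 (n = 8). Abcg2 ranged from 13.7 ± 8.87 CPM in L1363P adenocarcinomas and 15.01 ± 15.3 in KB2P to 59.2 ± 17.9 in sarcomatoid tumours. Abcc1 was lowest in KP carcinosarcomas at 94.0 ± 15.8 CPM and highest in sarcomatoid tumours at 384.8 ± 124.7, with 175.5 ± 118.8 in KP adenocarcinomas next (123.5 ± 29.0 without 90.01A). Sarcomatoid tumours had 40.3 ± 13.9 CPM of Abcc3, against 22.1 ± 10.3 in KP carcinosarcomas, the lowest group. They had 58.7 ± 20.1 CPM of Abcc4, lowest in KB2P at 18.2 ± 9.17. For Abcc5 they had 92.3 ± 49.8 CPM, just above KB1PM at 91.7 ± 111.6. Without KB1PM tumour 3, which had 397.1 CPM, the KB1PM mean was 57.7 ± 32.6 CPM, below KB2P at 65.5 ± 32.6 and KB1P at 64.5 ± 30.4. KP carcinosarcomas were lowest in Abcc5 at 19.4 ± 9.41. Sarcomatoid tumours held the highest mean of all 8 genes. With the groups ordered by mean for each gene, the gap between neighbours exceeded the larger SD of the pair for Abcc1 between sarcomatoid tumours and KP adenocarcinomas, and for no other neighbouring pair of groups.

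**Figure D1:**
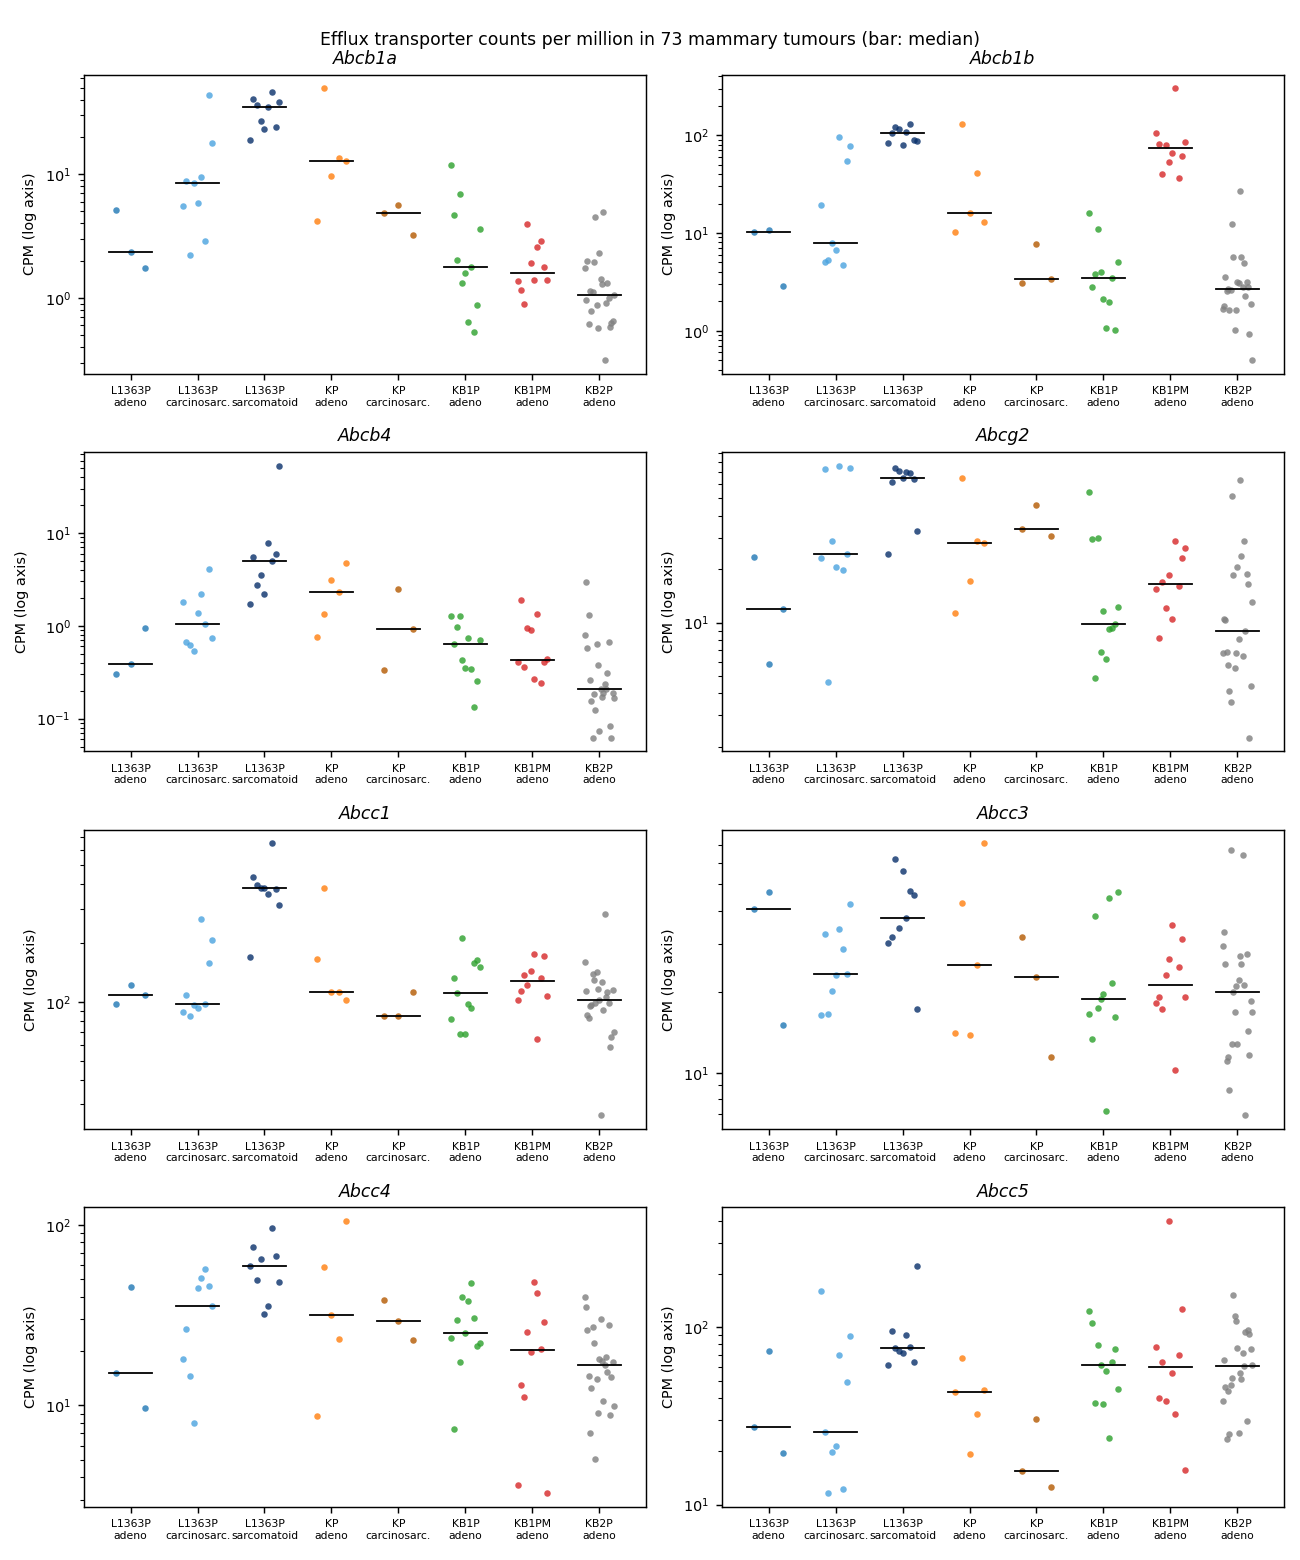
CPM of the 8 transporters (vertical log axes) in each of the 73 tumours by group (horizontal axes), with black bars at the group medians. Abcb1b of the 10 KB1PM tumours lies between 36.4 and 303.3 CPM and that of the 11 KB1P tumours between 1.02 and 16.2, while Abcb1a of these groups overlaps.

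Per kilobase of exon the order of the members also differed between groups. The median in sarcomatoid tumours was 25.3 CPM per kb for Abcc1, 13.3 for Abcb1b, 9.25 for Abcc4, 7.96 for Abcg2, 7.16 for Abcc5, 6.58 for Abcc3, 6.35 for Abcb1a and 0.535 for Abcb4. In KB2P tumours it was 6.80 CPM per kb for Abcc1, 5.69 for Abcc5, 3.49 for Abcc3 and 2.61 for Abcc4, then 1.10 for Abcg2, 0.338 for Abcb1b, 0.194 for Abcb1a and 0.0224 for Abcb4. In KB1PM tumours Abcb1b was the first of the 8, at 9.18 CPM per kb, ahead of Abcc1 at 8.49, while Abcb1a was at 0.290 and Abcb4 at 0.0455. Abcc1 was the first in the other 7 groups, and Abcb4 was the last in all 8. The exon length used was 15.09 kb for Abcc1 and 7.99 kb for Abcb1b, so this order depends on the lengths. In CPM the KB1PM median was higher for Abcc1, at 128.1 against 73.3 for Abcb1b.

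The first question of the design was how histology relates to expression within the L1363P genotype. Sarcomatoid tumours are spindle-cell tumours without epithelial growth, adenocarcinomas are glandular, and carcinosarcomas hold both components. Abcb1a was 1.75, 2.33 and 5.12 CPM in the 3 adenocarcinomas and 18.9, 34.8 and 46.2 CPM as lowest, median and highest of the 9 sarcomatoid tumours. Abcb1b was 2.90, 10.4 and 10.7 CPM in the adenocarcinomas against 78.7, 106.1 and 131.8 as lowest, median and highest. In neither gene did the groups overlap.

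Of the 8 members, 5 rose in sarcomatoid tumours against L1363P adenocarcinomas and none fell, where 30.6% of the 16147 genes tested were called (1959 higher and 2986 lower; edgeR quasi-likelihood test, Benjamini-Hochberg (BH) adjusted p under 0.05). The median log2 fold change of the 8 members was 1.96, and that of all genes tested -0.09. The log2 fold change was 3.39 for Abcb1a (standard error, SE, 0.81, edgeR adjusted p = 0.0033) and 3.68 for Abcb1b (SE 1.03, edgeR adjusted p = 0.00943). Abcb4 rose by 4.13 (SE 1.11, edgeR adjusted p = 0.00733), from 0.545 ± 0.349 to 9.69 ± 16.3 CPM. Without sarcomatoid tumour 9.1 its change was 2.96 (edgeR adjusted p = 0.00635), without adenocarcinoma 52 it was 4.78 (0.0157), and with limma on the deposited log2 values 3.27 (limma adjusted p = 0.00307). The Abcb4 call came close to the threshold without adenocarcinoma 7.2 (edgeR adjusted p = 0.0389) or 26.2 (0.0481). For Abcb1b the edgeR adjusted p was 0.0311 without 7.2, 0.0398 without 26.2 and 0.0455 without 52.

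Abcc1 rose by 1.81 on the log2 scale (SE 0.42, edgeR adjusted p = 0.00258). It was 97.9, 109.0 and 122.2 CPM in the adenocarcinomas and 169.4, 381.5 and 647.8 CPM as lowest, median and highest of the sarcomatoid tumours. Abcg2 rose by 2.12 (SE 0.65, edgeR adjusted p = 0.0156), from 5.84, 11.9 and 23.3 CPM to 24.4, 64.8 and 73.7 as lowest, median and highest. The Abcg2 call was lost without L1363P adenocarcinoma 26.2 (edgeR adjusted p = 0.103) or 52 (0.0568), and the change was 2.72 without 7.2 (0.0176). For each of these 5 called genes all 9 sarcomatoid tumours lay above all 3 adenocarcinomas. The share of all genes tested that separate in this way is not given here, and 30.6% were called.

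The other Abcc members did not pass. Abcc4 differed by 1.33 (edgeR adjusted p = 0.0912), with 7 of 9 sarcomatoid tumours above all adenocarcinomas. It passed without adenocarcinoma 26.2 (edgeR adjusted p = 0.0374), in a fit of these groups alone (0.0352), with limma on the deposited log2 values (0.0376) and with DESeq2 (0.0494). Abcc5 differed by 1.20 (edgeR adjusted p = 0.164), or by 1.98 without 26.2 (0.0909), and Abcc3 by 0.24 (edgeR adjusted p = 0.70), or by -0.10 without 52 (0.892).

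Sums of some lists of cell type markers separated these groups too, and sums of other lists did not. Summed over 10 macrophage markers the sarcomatoid tumours had 4020 to 7730 CPM and the L1363P adenocarcinomas 735 to 1480. Sums of 8 fibroblast markers were 16200 to 32200 against 2430 to 4600 CPM, those of 10 mesenchymal markers 10200 to 36200 against 833 to 2800, and those of 10 endothelial markers 359 to 946 against 132 to 313. Epithelial marker sums were 72.2 to 514 against 2130 to 8180 CPM. The groups overlapped in T and NK cell markers (4.26 to 127 against 6.21 to 23.5 CPM) and in pericyte and smooth muscle markers (651 to 4220 against 600 to 1070). They also overlapped in adipocyte markers (22.1 to 253 against 51.7 to 3950 CPM). No marker of these lists was at 0 in any group as a whole. The part of these cell types in the transporter differences was not tested. In bulk samples a change in the share of a cell type and a change of RNA per cell cannot be told apart.

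The 9 L1363P carcinosarcomas spread widely. Abcb1b was 4.70, 7.92 and 95.1 CPM as lowest, median and highest, the median below that of the adenocarcinomas (10.4), and Abcb1a 2.21, 8.53 and 43.6 CPM, the median above theirs (2.33). The 3 tumours highest in Abcb1b were 17 (5% epithelial) with 95.1 CPM, 4 (2%) with 78.1 and 18 (40%) with 54.1. The 6 tumours labelled at least 75% epithelial had 4.70 to 19.3 CPM, and all but tumour 6 were at or below 7.92.

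Against L1363P carcinosarcomas, 4 of 8 members rose in sarcomatoid tumours, where 21.5% of genes were called. Abcb1a rose by 1.45 (SE 0.46, edgeR adjusted p = 0.0277), Abcb1b by 1.73 (SE 0.585, edgeR adjusted p = 0.0366), Abcb4 by 2.71 (SE 0.63, edgeR adjusted p = 0.00442) and Abcc1 by 1.51 (SE 0.27, edgeR adjusted p = 0.000661). Of the 9 sarcomatoid tumours, 8 lay above all carcinosarcomas for Abcc1, 5 for Abcb1b and for Abcb4 and 1 for Abcb1a. The Abcb1b call missed the threshold without the filter on low counts (edgeR adjusted p = 0.0508). The Abcb4 change was 1.54 without sarcomatoid tumour 9.1 (edgeR adjusted p = 0.0212). With limma on the deposited log2 values the changes were 2.71 for Abcb1b and 2.08 for Abcb4 (limma adjusted p = 0.00418 and 0.00966). Without carcinosarcomas 17 and 4 and KP adenocarcinoma 90.01A the changes were 2.83 for Abcb1b and 1.92 for Abcc1, and Abcg2 passed as well (1.13, edgeR adjusted p = 0.0217), as did Abcc3 (0.84, edgeR adjusted p = 0.0486). Against the carcinosarcomas of at least 75% epithelium alone they were 2.54 for Abcb1a and 3.67 for Abcb1b.

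Against L1363P adenocarcinomas, 0 of 8 members passed in L1363P carcinosarcomas, where 2.70% of genes were called (436, and 3291 at an unadjusted p under 0.05). Abcb1a differed by 1.94 (edgeR adjusted p = 0.143), with 7 of 9 carcinosarcomas above all adenocarcinomas, and DESeq2 called it (adjusted p = 0.0418). Abcb1b differed by 1.95 (edgeR adjusted p = 0.23), or by 0.90 without carcinosarcomas 17 and 4 and KP adenocarcinoma 90.01A (0.472). With the 6 carcinosarcomas of at least 75% epithelium alone the differences were 0.89 and 0.05. Unadjusted p was under 0.05 for 3 of the 8 members.

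Within the 9 L1363P carcinosarcomas the labelled epithelial percentage itself was the tested term, as a change in log2 level for each 10 points of it. Of the 8 members, 2 fell with more epithelium, where 8.34% of 14645 genes were called. Abcb1b fell by 0.39 on the log2 scale per 10 points (SE 0.07, edgeR adjusted p = 0.0137) and Abcc1 by 0.15 (SE 0.02, edgeR adjusted p = 0.00467). Without carcinosarcoma 17 or 4, the pair with the least epithelium, the Abcb1b slope was about as large, at -0.39 and -0.42, but missed the threshold (edgeR adjusted p = 0.0843 and 0.0656). The Abcc1 call held in all 11 alternatives run, with an edgeR adjusted p of 0.0489 without carcinosarcoma 17 and 0.0286 without 4. No alternative left out both of these tumours. Abcb1a had a slope of -0.25 (edgeR adjusted p = 0.155) and Abcc5 one of -0.07 (edgeR adjusted p = 0.682). Without carcinosarcoma 6, which had 160.2 CPM of Abcc5 at 95% epithelium, the Abcc5 slope was -0.27 (edgeR adjusted p = 0.00345).

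**Figure D2:**
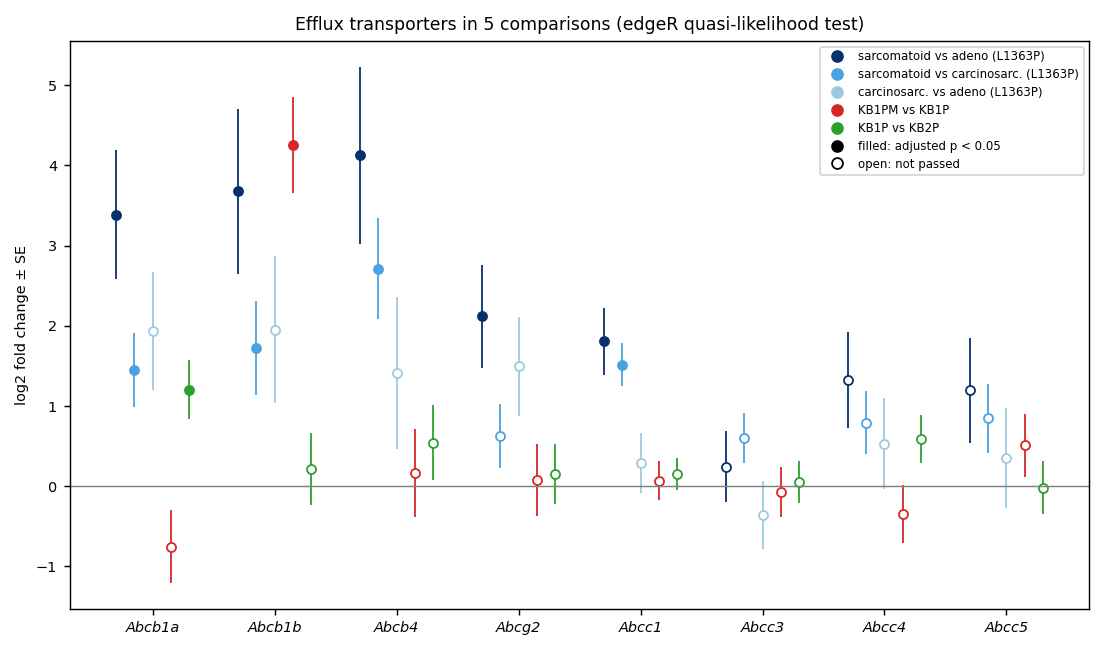
Log2 fold changes (vertical axis, bars are ± 1 SE) of the 8 transporters (horizontal axis) in 5 comparisons, from edgeR's quasi-likelihood test, with filled points for adjusted p under 0.05. The sarcomatoid against adenocarcinoma points are filled for Abcb1a, Abcb1b, Abcb4, Abcg2 and Abcc1, and the KB1PM against KB1P point is filled for Abcb1b, at 4.26.

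In KP tumours the adenocarcinomas were the higher group for Abcb1b, without passing the test, and the difference from the L1363P genotype was not tested. Abcb1b was 10.2, 13.0, 16.0, 40.9 and 128.9 CPM in the 5 KP adenocarcinomas and 3.11, 3.35 and 7.77 CPM in the 3 KP carcinosarcomas. All 5 adenocarcinomas lay above all 3 carcinosarcomas (log2 fold change -3.12, SE 1.03, edgeR adjusted p = 0.342). Here 0% of genes were called, and 0 of 8 members. At an unadjusted p under 0.05 there were 1926 genes and 3 members, while limma called 1 gene and DESeq2 191, Abcb1b among them (DESeq2 adjusted p = 0.0325). Abcb1a was 4.23, 9.76, 12.8, 13.5 and 49.8 CPM in KP adenocarcinomas and 3.21, 4.86 and 5.65 in KP carcinosarcomas (-1.96, edgeR adjusted p = 0.355). Without adenocarcinoma 90.01A the difference was -2.08 for Abcb1b (edgeR adjusted p = 0.359) and -1.14 for Abcb1a (0.509).

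Tumour 90.01A was highest of the KP adenocarcinomas in Abcb1a (49.8 CPM), Abcb1b (128.9), Abcc1 (383.3) and Abcg2 (65.5), values within the sarcomatoid range for the last 3. Its macrophage marker sum of 10400 CPM was the highest of its group (lowest 655, median 1920). So was its fibroblast sum of 25000 CPM (lowest 4340, median 9510).

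Comparing adenocarcinomas of the L1363P and KP genotypes, 0 of 8 members passed and 0.211% of genes were called (34, and 2573 at an unadjusted p under 0.05). Abcb1a was lower in L1363P by 2.55 on the log2 scale without passing (log2 fold change -2.55, edgeR adjusted p = 0.157; DESeq2 0.0223), and Abcb1b by 2.38 (-2.38, edgeR adjusted p = 0.254). Without KP 90.01A the difference was -1.73 for Abcb1a (edgeR adjusted p = 0.315) and -1.34 for Abcb1b (0.565).

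KB1PM and KB1P tumours share a genotype label and differ in title. Abcb1b was 36.4, 73.3 and 303.3 CPM as lowest, median and highest of the 10 KB1PM tumours, and 1.02, 3.47 and 16.2 CPM in the 11 KB1P tumours. In reads these were 601 to 3428 counts against 10 to 204. All 10 KB1PM tumours lay above all 11 KB1P tumours. Abcb1a, its neighbour, was 0.89, 1.59 and 3.99 CPM in KB1PM and 0.533, 1.79 and 12.0 CPM in KB1P, and the groups overlapped.

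Abcb1b rose by 4.26 on the log2 scale (SE 0.595, 19.1-fold, edgeR adjusted p = 4.19e-06), where 0.887% of 18492 genes were called. It was 1 of 8 members called and had the second smallest p of all genes tested. The 12 alternatives run gave 3.83 to 4.61 with adjusted p from 5.13e-13 to 0.0247, all past the threshold, among them the fit without KB1PM tumour 6 (3.83) and the fit without the tumours low in epithelial markers (4.31). The difference was 4.36 with the 7 KB1PM libraries of prefix 1756 alone, 3.97 with the 3 of prefix 1725 and 4.21 against the 6 KB1P libraries of prefix 1857. No prefix holds both KB1P and KB1PM libraries, so the difference cannot be told apart from one between prefixes. A gene total adds up reads over all exons and cannot reveal an absent exon, so these counts check no deletion and do not measure protein.

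The other 7 members did not pass in KB1PM against KB1P. Abcb1a differed by -0.75 (SE 0.45, edgeR adjusted p = 0.557), Abcc5 by 0.51 (edgeR adjusted p = 0.688), Abcc4 by -0.35 (edgeR adjusted p = 0.778) and Abcb4 by 0.16 (edgeR adjusted p = 0.947). Abcg2, Abcc1 and Abcc3 lay within 0.08 of 0 (edgeR adjusted p = 0.974, 0.95 and 0.962). Directions turned under some alternatives, without a call: Abcb1a was 0.07 and Abcc5 -0.31 with the replicate block, Abcc5 -0.22 with prefix 1756 alone and Abcb4 -0.26 with prefix 1725 alone. The median of the 8 members was 0.07, and that of all genes 0.01.

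Genes around Abcb1b were examined next. Of the 16 other tested genes that start within 3 Mb of Abcb1b, 0 passed, and their log2 fold changes ran from -0.93 (Gm15731) to 2.69 (Zfp804b, edgeR adjusted p = 0.189) with a median of 0.21. Rundc3b, whose start lies at -175.2 kb from that of Abcb1b, differed by 1.34 (edgeR adjusted p = 0.365). The same test called 0 of 39 tested genes of the ABC family outside the 8. It called 0 of 20 regulators named for these pumps (the xenobiotic receptor Nr1i2, Nfe2l2, Ybx1, Sp1 and others). Nor did any of 19 genes of glutathione synthesis and conjugation or 13 named neighbours on chromosome 5 pass. With 0.887% of all 18492 genes tested called in this comparison, counts of 0 do not set these lists or the genes around Abcb1b apart.

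**Figure D3:**
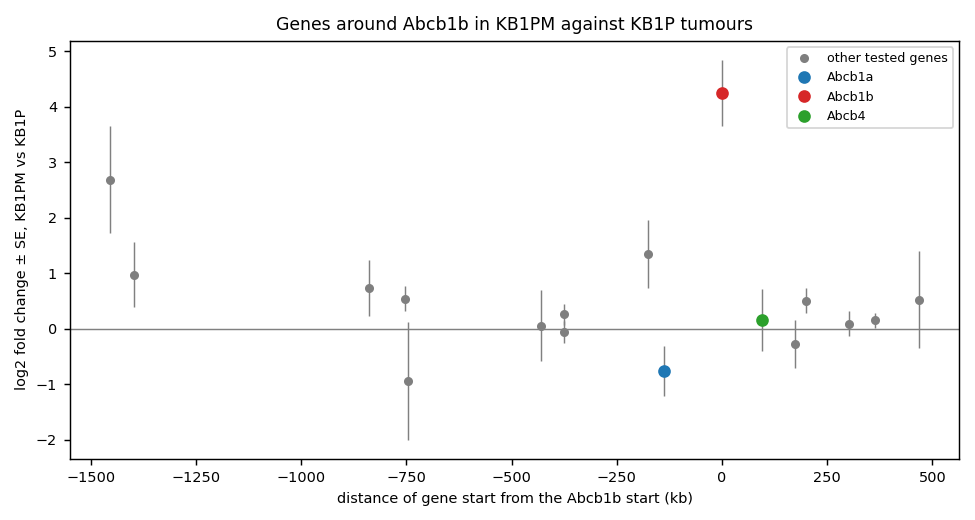
Log2 fold change of KB1PM against KB1P tumours (vertical axis, bars are ± 1 SE) for the genes around Abcb1b, by the distance of their start from that of Abcb1b in kb (horizontal axis). Abcb1b lies at 4.26, Abcb1a at -0.75 and Abcb4 at 0.16, and none of the genes other than Abcb1b passed the test.

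The 4 other genes among the 5 smallest p-values in this comparison encode ribosomal proteins (Rps27, Rps13, Rpl19 and Rps6) and were lower in KB1PM. The median of Rps27 was 0.665 CPM in KB1P and 0.609 in KB1PM, while the highest KB1P tumour had 284.2 CPM. Medians in KB1P and KB1PM were 2.315 and 2.219 CPM for Rps13, 2.924 and 2.381 for Rpl19, and 3.809 and 2.443 for Rps6. KB1P libraries thus differ among themselves in such genes. The median of Abcb1b in KB1P tumours was 3.89 CPM for prefix 1857, 1.96 for 2119 and 1.95 for 3528, and in KB1PM tumours 66.4 CPM for 1725 and 80.3 for 1756.

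The ratio of the pair within a tumour does not depend on library size. The log2 ratio of Abcb1b to Abcb1a counts (0.5 added to each) was 5.39 ± 0.97 (SD, n = 10) in KB1PM, a ratio of 12.4, 44.8 and 116 as lowest, median and highest. In KB1P tumours it was 0.67 ± 0.86 (n = 11), a ratio of 0.603, 1.38 and 6.18. The difference was 4.72 (two-sided permutation test, p = 4e-05, BH-adjusted over 11 comparisons p = 0.00044), with 10 of 10 KB1PM tumours above all KB1P tumours. Within prefixes the median was 5.54 (1725) and 5.44 (1756) in KB1PM and 0.80 (1857), 0.21 (2119) and -0.02 (3528) in KB1P.

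The ratio in the other 6 groups was 1.30 ± 0.78 (SD, n = 3) in L1363P adenocarcinomas, 0.97 ± 1.27 (n = 9) in L1363P carcinosarcomas and 1.70 ± 0.31 (n = 9) in sarcomatoid tumours. It was 0.99 ± 0.63 (n = 5) in KP adenocarcinomas, -0.04 ± 0.56 (n = 3) in KP carcinosarcomas and 1.25 ± 1.15 (n = 23) in KB2P tumours. None of the other 10 comparisons passed (exact permutation or permutation tests, adjusted p from 0.401 to 0.88). Outside KB1PM, 1 tumour reached the KB1PM range: KB2P tumour 30, low in epithelial markers, with a log2 ratio of 4.32 (19.9-fold). Without it the KB2P ratio was 1.11 ± 0.96 (n = 22). Sarcomatoid tumours, where both genes were high, had the narrowest spread, from 1.17 to 2.12. In reads per kilobase of exon, Abcb1b exceeded Abcb1a in 10 of 10 KB1PM, 9 of 9 sarcomatoid, 17 of 23 KB2P, 5 of 11 KB1P, 5 of 9 L1363P carcinosarcoma, 4 of 5 KP adenocarcinoma, 3 of 3 L1363P adenocarcinoma and 0 of 3 KP carcinosarcoma tumours.

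**Figure D4:**
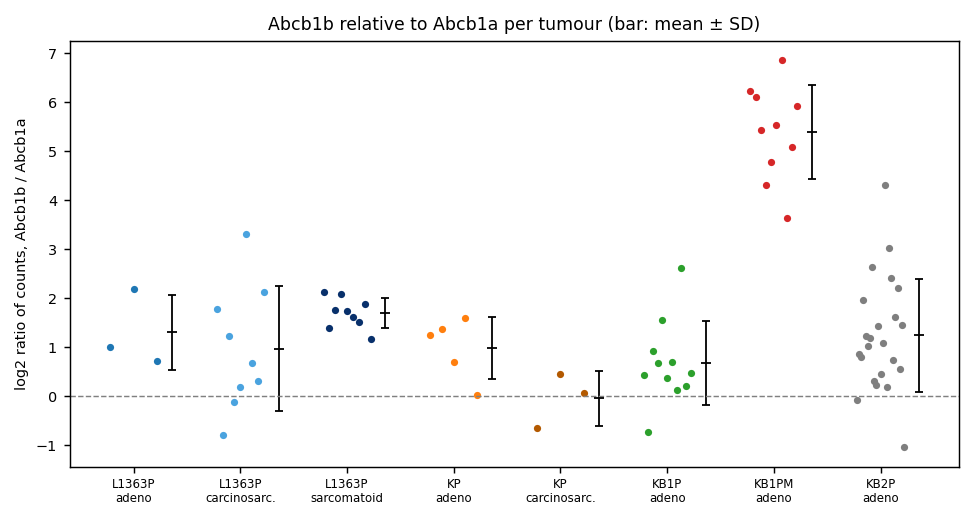
Log2 ratio of Abcb1b to Abcb1a counts (vertical axis) in each tumour by group (horizontal axis), with the mean ± SD beside the points and a dashed line at equal counts. KB1PM tumours lie between 3.63 and 6.86, and KB1P tumours between -0.73 and 2.63.

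Correlation of the pair within groups was examined in 5 groups. Pearson's r of log2 CPM was 0.79 in KB1P tumours (n = 11, permutation p = 0.00428, BH-adjusted over 5 groups 0.0214) with Spearman's rho 0.67 (permutation p = 0.0272, adjusted 0.068), and r was 0.49 without the 2 tumours farthest from the median of Abcb1a, so it rests in part on those. It was 0.72 in the 6 KB1P tumours of prefix 1857. In L1363P carcinosarcomas r was 0.71 (n = 9, exact permutation p = 0.039, adjusted 0.0684), rho 0.68 (exact permutation p = 0.0503) and r 0.66 without 2 tumours. In sarcomatoid tumours r was 0.69 (n = 9, exact permutation p = 0.0411, adjusted 0.0684), rho 0.65 (exact permutation p = 0.0666) and r 0.42 without 2 tumours. These relations did not pass the adjustment.

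KB2P tumours had r = 0.41 (n = 23, permutation p = 0.0547, adjusted 0.0684) and rho = 0.55 (permutation p = 0.00742, adjusted 0.0371), with r = 0.32 without 2 tumours and 0.48 without tumour 30. Within prefixes r was 0.36 (2459, n = 9) and 0.39 (2749, n = 12). In KB1PM tumours r was 0.20 (n = 10, permutation p = 0.554, adjusted 0.554), rho -0.10 (permutation p = 0.785) and r 0.66 without 2 tumours, and it was 0.26 in the 7 tumours of prefix 1756. Differences between these correlations were not tested. Abcb1a had 15 to 68 counts in KB1PM and 4 to 53 in KB2P tumours, against 285 to 644 in sarcomatoid tumours. The part of low counts in the correlations was not tested.

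**Figure D5:**
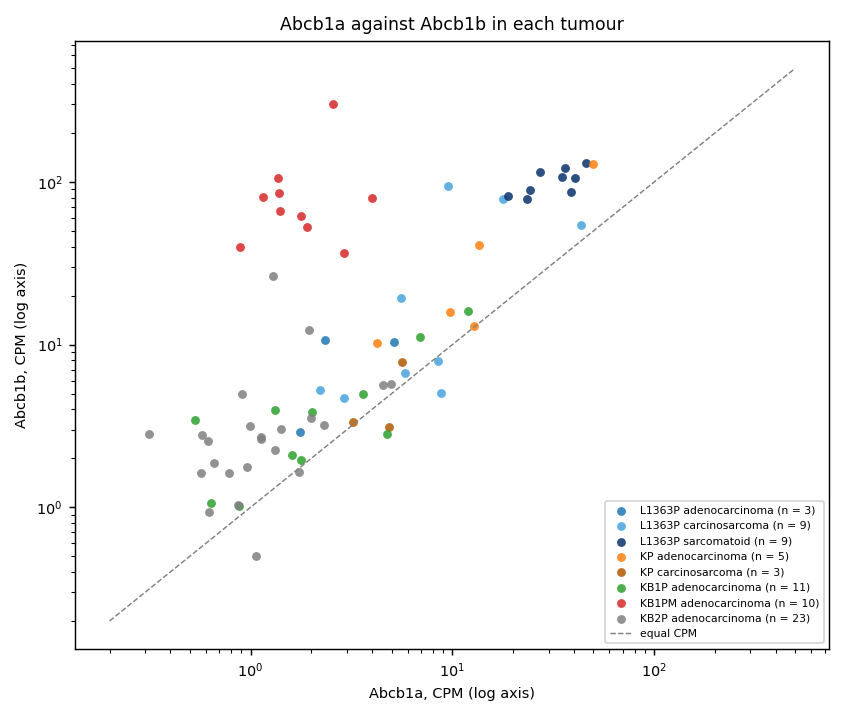
Abcb1b against Abcb1a in CPM (both log axes) in each of the 73 tumours, coloured by group, with a dashed line at equal CPM. The 10 KB1PM tumours lie at 0.89 to 3.99 CPM of Abcb1a and 36.4 to 303.3 CPM of Abcb1b, ranges that 0 tumours of other groups share in both genes, and the 9 sarcomatoid tumours lie at 18.9 to 46.2 and 78.7 to 131.8.

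Between KB1P and KB2P adenocarcinomas, 1 of 8 members passed, where 5.20% of genes were called. Abcb1a was 0.533, 1.79 and 12.0 CPM as lowest, median and highest in KB1P and 0.315, 1.06 and 4.99 in KB2P, and it was higher in KB1P by 1.20 (SE 0.37, edgeR adjusted p = 0.0387). Of 11 KB1P tumours, 2 lay above all 23 KB2P tumours. The call held in 4 of 10 alternatives. It was lost in a fit of these groups alone (1.21, edgeR adjusted p = 0.107), with KB2P prefix 2749 alone (1.19, 0.143), with KB1P prefix 1857 alone (0.91, 0.275) and with limma (0.84, limma adjusted p = 0.216). With the tumours that share a number it was lost both unpaired (1.17, edgeR adjusted p = 0.384) and with the replicate block (0.96, 0.388). Abcb1b differed by 0.21 (edgeR adjusted p = 0.854), or by -0.28 with KB2P prefix 2749 alone (0.863), and Abcc4 by 0.59 (edgeR adjusted p = 0.265).

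Within KB2P, the 12 tumours of prefix 2749 were set against the 9 of prefix 2459 as a measure of how far prefixes of 1 genotype can differ. 6.90% of 19230 genes were called, and 1 of 8 members. Abcg2 was 4.41, 17.6 and 63.7 CPM as lowest, median and highest for 2749 and 2.25, 6.74 and 13.1 for 2459 (log2 fold change 1.68, SE 0.43, edgeR adjusted p = 0.0125). Without KB2P tumour 30, which had 63.7 CPM, it was 1.39 (edgeR adjusted p = 0.0361), and the call was lost in a fit of these groups alone (0.0709). Abcb1b differed by 1.43 between the prefixes (edgeR adjusted p = 0.0982), with the highest value, 26.6 CPM, in tumour 30, and by 0.84 without the 3 adenocarcinomas low in epithelial markers, tumour 30 among them (0.324).

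Comparisons across the prefix sets gave higher levels of some of the transporters in KP adenocarcinomas. Abcc5 was lower there without a call (-0.65 against KB1P, edgeR adjusted p = 0.356, and -0.67 against KB2P, 0.264). Abcg2 and Abcc3 passed in neither comparison. Against KB1P, 3 of 8 members rose in KP, where 25% of genes were called: Abcb1a by 2.46 (edgeR adjusted p = 0.000353), Abcb1b by 3.13 (edgeR adjusted p = 0.000172) and Abcb4 by 1.94 (edgeR adjusted p = 0.0205). Without KP 90.01A the change was 1.65 for Abcb1a (edgeR adjusted p = 0.028) and 2.11 for Abcb1b (0.0188). The Abcb4 call was lost without KP adenocarcinoma 40 (edgeR adjusted p = 0.0901) and with KB1P prefix 1857 alone (0.0722). Against KB2P, 5 of 8 rose, where 35.3% of genes were called: Abcb1a by 3.66 (edgeR adjusted p = 2.55e-10), Abcb1b by 3.34 (edgeR adjusted p = 3.48e-07), Abcb4 by 2.48 (edgeR adjusted p = 0.000226), Abcc4 by 1.32 (edgeR adjusted p = 0.0045) and Abcc1 by 0.68 (edgeR adjusted p = 0.0362). Without KP 90.01A the change was 2.86 for Abcb1a (edgeR adjusted p = 1.12e-06), 2.31 for Abcb1b (0.00117) and 0.20 for Abcc1 (0.636). The Abcc1 call held in 5 of 12 alternatives, and was also lost with limma (limma adjusted p = 0.0842) and DESeq2 (DESeq2 adjusted p = 0.0557). The Abcc4 call was lost without KP adenocarcinoma 40 (edgeR adjusted p = 0.137) and with limma (limma adjusted p = 0.0545). Genotype and prefix coincide in these comparisons, which share the KP tumours, and fibroblast marker sums were 4340 to 25000 CPM in KP adenocarcinomas, 1310 to 11300 in KB1P and 903 to 9950 in KB2P. The part of either in the differences was not tested.

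For L1363P adenocarcinomas no member passed against either group. Against KB1P, 0 of 8 members passed, where 3.71% of genes were called (686, and 3068 at an unadjusted p under 0.05), and against KB2P 0 of 8 passed, where 9.10% were called (1683, and 4446). In both comparisons the unadjusted p of every member was above 0.05. Abcb1b was 0.74 higher than in KB1P (edgeR adjusted p = 0.68) and 0.96 higher than in KB2P (edgeR adjusted p = 0.404), with SE of 0.76 and 0.69.

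Genes of the wider ABC family moved in both directions in sarcomatoid tumours. Of 35 tested ABC genes outside the 8, 6 rose and 8 fell against L1363P adenocarcinomas, where 30.6% of all genes tested were called, with a median log2 fold change of -0.14. The 4 with the smallest p all fell: Abca12, a lipid transporter of keratinocytes, from 71.1 ± 100.1 to 0.0803 ± 0.0764 CPM, Abcb9, a peptide transporter of lysosomes, from 18.6 ± 28.2 to 1.65 ± 1.11, Abcb6, a porphyrin transporter, from 3.01 ± 0.642 to 0.574 ± 0.304, and Abcc8, the sulfonylurea receptor, from 12.0 ± 20.6 to 0.173 ± 0.290. Abcc8 and Abcb9 rested on adenocarcinoma 26.2, without which the log2 fold change was 0.14 for Abcc8 (edgeR adjusted p = 0.97) and -0.49 for Abcb9 (edgeR adjusted p = 0.644). Of 19 glutathione genes 2 rose and 3 fell, a share below the 30.6% of all genes: Slc7a11, the cystine importer that feeds glutathione synthesis, rose from 11.7 ± 7.71 to 31.7 ± 8.73 CPM, and Mgst1, a membrane glutathione transferase, fell from 472 ± 230.0 to 33.7 ± 16.0. The call of Slc7a11 was lost without adenocarcinoma 7.2 (log2 fold change 1.41, edgeR adjusted p = 0.0675) and without adenocarcinoma 26.2 (1.02, edgeR adjusted p = 0.146).

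Of 19 regulators 1 rose and 4 fell, again a share below the 30.6% of all genes tested, with Rxra, the partner of nuclear receptors, from 165.6 ± 31.2 to 81.0 ± 14.8 CPM and Foxo1, a forkhead factor, from 114 ± 47.1 to 41.2 ± 8.99. Nfyc, a subunit of the CCAAT-binding factor, fell from 49.2 ± 32.7 to 24.5 ± 3.79 CPM, a log2 fold change of -1.01 (edgeR adjusted p = 0.0039) that was -0.32 without adenocarcinoma 26.2 (edgeR adjusted p = 0.353). Of 12 neighbours of the Abcb1 pair on chromosome 5, 4 rose and 0 fell, with a median of 0.90, a share near that of all genes: Abcb4 itself, Sri, a calcium-binding protein, from 75.1 ± 4.80 to 160.0 ± 20.0 CPM, Cdk14, a cyclin-dependent kinase, from 76.4 ± 24.3 to 127.8 ± 18.8, and Slc25a40, a mitochondrial carrier, from 12.6 ± 2.43 to 23.4 ± 4.30. With only 3 adenocarcinomas, these neighbour calls were fragile. Without adenocarcinoma 26.2 the edgeR adjusted p was 0.0503 for Sri, 0.102 for Cdk14 and 0.0698 for Slc25a40. Without 7.2 it was 0.0542 for Sri and 0.149 for Slc25a40, and without 52 it was 0.0718 for Slc25a40. Sri (-0.14, edgeR adjusted p = 0.014) and Slc25a40 (-0.14, edgeR adjusted p = 0.019) also fell with the epithelial percentage within carcinosarcomas, per 10 points. Both were lost without carcinosarcoma 17 (edgeR adjusted p = 0.118 and 0.169) and without carcinosarcoma 4 (0.0812 and 0.0933).

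Likeness of pattern was described by Pearson's r of log2 CPM over the 29 L1363P and KP libraries, among 12088 genes. These libraries share 1 prefix. They pool groups of different histology, with sarcomatoid tumours in L1363P alone, so r mixes differences between groups with those within them. Closest to Abcb1b were Pcdh19 (r = 0.95), Pdgfra, Emp3, Arsj and Mcub (0.92 each). Closest to Abcb1a were Mcub and Ttc39c (0.90 each), then Arsj, Abcb1b and Eml1 (0.89 each). Abcb1b thus had rank 4 for Abcb1a, while Abcb1a had rank 33 for Abcb1b.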

How the data were processed

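Polyadenylated RNA of 73 tumours was sequenced from strand-marking libraries, per the labels' protocols. The authors deposited read counts per gene (39438 symbols) and a table of log2 normalized counts (37148 symbols, 36113 of them shared). Per the submitters' processing notes, mm10, DESeq, featureCounts 2.0.0, STAR 2.7.3a and cutadapt 2.10 were used. The strand setting of the counting is not stated in those notes or the labels. Symbols that read as dates (24, with 0.1688% of counts) were left as they were. Counts were analysed with edgeR 4.0.16 (R 4.3.3): filterByExpr at a minimum count of 10, trimmed-mean (TMM) scaling, the quasi-likelihood F test and Benjamini-Hochberg adjustment over all genes tested at 0.05. L1363P and KP tumours were compared in a fit of their 29 libraries, comparisons with KB1P, KB1PM or KB2P in a fit of all 73, and the epithelial slope in the 9 carcinosarcomas. Levels are CPM on 1 scale over all 73 libraries. Ratios and correlations of Abcb1a and Abcb1b were tested by permutation (scipy 1.17.1). The genes named are the 8 members in every comparison and up to 4 called genes of each list, smallest p first. Neighbours of single tumours with outlying values, and the group means and ratios without such tumours, were chosen after their values were seen. Alternatives were RLE scaling, no filter, fits of 2 groups, subsets of prefixes, libraries left out, limma 3.58.1 on the deposited log2 values and DESeq2 1.42.0. Members and lists were chosen with earlier results of these data known. The scripts were tested on simulated data. DNA copy-number data were not analysed here.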

Additional observations from a re-analysis of the deposited data

Results flagged for a closer look

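The sets of values examined were 36 (each gene, and the Abcb1b to Abcb1a ratio, in each group of 4 to 10 tumours). Of these, 9 had a tumour set apart from the rest of its group by more than Dixon's 95% critical value. For independent sets of normally distributed values that happens in about 1 in 20. All 9 were highest values in CPM, which are skewed, and the sets share tumours, so 9 of 36 cannot be read as an excess over chance. Of these 9, 3 came from KP adenocarcinoma 90.01A: Abcb1a at 49.8 CPM (next highest 13.5), Abcb1b at 128.9 (next 40.9) and Abcc1 at 383.3 (next 166.4). This tumour, labelled 100% epithelial, had 250 CPM of summed epithelial markers.

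L1363P carcinosarcoma 18 (40% epithelial) stood apart with 43.6 CPM of Abcb1a and 4.07 CPM of Abcb4. Sarcomatoid tumour 9.1 stood apart with 52.9 CPM of Abcb4, the lipid transporter beside the Abcb1 pair, and 221.8 CPM of Abcc5. Among KB1PM tumours, tumour 6 had 303.3 CPM of Abcb1b and tumour 3 had 397.1 CPM of Abcc5.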

How the results depend on the processing

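Of 1089 member tests under alternatives, 1000 kept their direction and side of the threshold, 23 lost a call, 13 gained one and 53 changed sign, 0 of them with a call in either fit. Of 128 mean levels under other scalings, 0 moved by over 1 SD. Counts of called genes moved more. Sarcomatoid against L1363P adenocarcinoma gave 2490 to 4260 genes leaving out an adenocarcinoma, lowest without 26.2, where Abcc8 changed sign (0.144). L1363P carcinosarcoma against adenocarcinoma gave 6 in a fit of the groups alone, 91 to 742 leaving out an adenocarcinoma, 113 with carcinosarcomas of at least 75% epithelium, 175 with limma and 1168 with DESeq2. Sarcomatoid against carcinosarcoma gave 5560 with those carcinosarcomas and 5994 without carcinosarcomas 17 and 4 and KP 90.01A. KP carcinosarcoma against adenocarcinoma gave 2 in a fit of the groups alone, 0 to 2 leaving out a tumour, 1 with limma and 191 with DESeq2. L1363P against KP adenocarcinoma gave 8 without a filter, 0 in a fit of the groups alone, 7 to 283 leaving out a tumour (highest without KP 131.03A, 11 without KP 90.01A, 129 without L1363P 7.2 and 61 without 52), 2 without the 3 tumours named above, 17 with limma and 469 with DESeq2. KB1PM against KB1P gave 334 without a filter, 2 in a fit of the groups alone, 4 with KB1P prefix 1857, 48 with KB1PM prefix 1725 and 4 with limma. KB1P against KB2P gave 361 in a fit of the groups alone, 436 with prefix 1857, 618 with prefix 2749 and 608 with limma. L1363P adenocarcinoma gave 209 against KB1P and 924 against KB2P in fits of the groups alone, and 375 to 398 (376 without 7.2) and 863 to 963 (899 without 52) leaving out a tumour. KP against KB1P adenocarcinoma gave 2772 to 4677 leaving out a tumour, lowest without 90.01A, and 2835 without 90.01A, KB1PM 8 and KB2P 30. The KB2P prefixes gave 98 in a fit of the groups alone. The epithelial slope gave 100 to 2265 leaving out a carcinosarcoma, lowest without 17 and highest without 6, with 716 and 755 without 54.1 and 54.2. The cause of these moves was not tested, except that fits of the groups alone use fewer samples.

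The 53 sign changes were these log2 fold changes. In sarcomatoid against L1363P adenocarcinoma, Abcc3 was -0.104 without 52. In L1363P carcinosarcoma against adenocarcinoma, Abcc1 was -0.191 with carcinosarcomas of at least 75% epithelium and -0.062 without 17, 4 and KP 90.01A. In L1363P against KP adenocarcinoma, Abcc3 was -0.106 without 7.2, -0.268 without 26.2, -0.173 without KP 89.01A, -0.179 without 131.03A, -0.065 without 39 and -0.001 with DESeq2 (0.519, the highest, without 40), and Abcc5 was 0.183 without 7.2, 0.284 without 52, 0.194 without KP 90.01A (-0.114, the sign of the full fit, without 39) and 0.216 without that tumour and carcinosarcomas 17 and 4. In KB1PM against KB1P, KB1P prefix 1857 gave -0.008 for Abcc1, leaving out KB1PM tumour 6 gave -0.028 for Abcg2 and 0.013 for Abcc3, and prefix 1756 gave -0.221 for Abcc5. Prefix 1725 gave -0.26 for Abcb4, -0.171 for Abcg2 and 0.176 for Abcc3. The replicate block gave 0.073 for Abcb1a, 0.209 for Abcc3, -0.074 for Abcc1 and -0.314 for Abcc5, the same tumours unpaired 0.122 for Abcc3 and -0.111 for Abcc1, and limma 0.071 for Abcc3. In KB1P against KB2P, Abcc5 was 0.002 without a filter, Abcg2 -0.272 with prefix 1857, and with prefix 2749 Abcb1b was -0.28, Abcg2 -0.391 and Abcc1 -0.027. There Abcc3 was -0.089 with the replicate block and -0.191 unpaired. In L1363P adenocarcinoma against KB1P, Abcb4 was 0.061 and Abcc4 0 (rounded) without 7.2, Abcb1a 0.079 and Abcg2 0.081 without 26.2, Abcb1a 0.193 and Abcc4 0.135 without 52, Abcb1a 0.204 and Abcg2 0.139 with prefix 1857, and Abcb1a 0.357 with limma. In L1363P adenocarcinoma against KB2P, Abcc1 was -0.026 with RLE scaling and with DESeq2, -0.016 in a fit of the groups alone, -0.079 without 26.2 and -0.171 with prefix 2749. There Abcg2 was 0.235 without 26.2, 0.142 with limma and 0.097 without KP 90.01A, KB1PM 8 and KB2P 30, Abcc4 was -0.556 without 26.2 and Abcb4 -0.331 without 52. Of the Abcb1b to Abcb1a ratios, those of L1363P against KP adenocarcinoma (-0.249), L1363P adenocarcinoma against KB2P (-0.076) and KP adenocarcinoma against KB2P (0.173) changed sign as differences of medians. Without 26.2 so did those of L1363P carcinosarcoma against adenocarcinoma (0.108), L1363P against KP adenocarcinoma (-0.129) and L1363P adenocarcinoma against KB2P (-0.382).

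Tumour numbers recur between groups, and a fit with the number as a block was run on them. Deviations of same-numbered tumours correlated from -0.17 to 0.19 over 8 shared numbers of KB1PM and KB1P (1 over 0.1). Over 5 shared numbers of KB1P and KB2P they correlated from -0.14 to 0.45 (4 over 0.1). Differently numbered tumours were not correlated for comparison, so whether the numbers pair the tumours was not tested. With the replicate block 1 gene was called in KB1PM against KB1P, Abcb1b at 4.61 (edgeR adjusted p = 0.00678), and 16 in KB1P against KB2P; unpaired fits of the same tumours called 1 and 44. Reads in KB1P, KB1PM and KB2P tumours were few for Abcb1a (4 to 151 counts), which limits the precision of its folds there.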

Other observations

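Genes near the outlying transporters, within 1 Mb, were compared with the median of the other tumours of the group. In KB1PM tumour 3, Abcc5 on chromosome 16 was 7.20 times that median, and 14 of its 18 measured neighbours were over 2 times theirs, led by Ece2 (13.9 times), Clcn2 (10.7), Dvl3 (9.75) and the translation initiation factor gene Eif4g1 (7.47). In KB1PM tumour 6, Abcb1b was 4.57 times the median and 5 of 9 neighbours were over 2 times theirs: Adam22 (6.68 times), the carnitine transferase gene Crot (4.5), Sri (2.92) and Dbf4 (2.49) among them.

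In sarcomatoid tumour 9.1, Abcb4 was 12.4 times the median with 1 of 10 neighbours over 2 times (Steap4, 8.34 times), and Abcc5 was 2.96 times with 0 of 18. In KP adenocarcinoma 90.01A, Abcb1a was 4.42 times and Abcb1b 8.90 times the median, each with 3 of 9 neighbours over 2 times: the other gene of the pair, Sri (2.28 times) and Tmem243 (2.19). Its Abcc1 was 3.40 times with 1 of 14 (Mpv17l, 2.46 times). In L1363P carcinosarcoma 18, Abcb1a was 6.06 times with 2 of 9 neighbours over 2 times and Abcb4 4.56 times with 3 of 10, Abcb1b (7.41 times) and Adam22 (3.27) among both. In L1363P carcinosarcoma 6, whose Abcc5 changed a slope above, Abcc5 was 6.82 times with 1 of 18 (Fam131a, 2.07 times). These tumours were chosen for their values, and the ratios are given as values with no test.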
